A study of Homo sapiens with 7 samples.

Results

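The interleukin-1 family genes described here are 10 ligands and receptors, IL1A, IL1B, IL33, IL18, IL1RN, IL1R1, IL1RAP, IL1R2, IL1RL1 and IL18R1, out of 17958 genes measured on the same arrays. They were chosen by name as a family, after the large log2 difference of IL1R1 between CtBP2 knockdown and scramble had been seen in these arrays, so the values of the family are a description. The rule takes the brightest transcript cluster of a gene by its mean over the 7 arrays, but each of the 10 had a single cluster with 1 symbol, so no measured value chose between clusters. The cells were SKOV3, an established line from a human ovarian carcinoma, infected with lentivirus and grown as stable clones in medium with puromycin. There were 2 clones with a scramble control, 3 with the CtBP1 knockdown label and 2 with a CtBP2 knockdown, so every group, controls included, was infected and selected. CtBP1 and CtBP2 are related transcriptional co-repressors, and the clones served to find genes on which the 2 proteins act differently. Each clone was measured once, on an Affymetrix Human Gene 1.1 ST array. The spread behind each p-value is that between clones of a group, and part of it may be technical. In bulk RNA, fewer cells expressing a gene and less RNA in each cell cannot be told apart.

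CTBP2 had log2 signals of 4.64 and 4.22 in the CtBP2 knockdown, below 5.70 and 6.14 in the controls. CTBP1 had 5.11, 6.13 and 6.13 on the arrays labelled CtBP1 knockdown against 5.69 and 6.37 in the controls, so the RNA does not separate those arrays from the controls, and they are called by their label throughout. The labels state that knockdown was checked by western blot. Scramble control 1 stood apart: its correlation over genes with any of the others was 0.926 to 0.941, and among those 6 it was 0.971 to 0.993. Its gene signals were also less spread, with an interquartile range of 2.20 against 2.85 to 3.15 on those 6 arrays. What this did to single genes was not tested. Where the use of a single control turned the sign of a difference from scramble or moved it by much, that value is given beside it. Of 11 markers of an epithelial ovarian line, 6 had a mean signal of at least 5 (ERBB2, KRT8, KRT18, PAX8, KRT19 and EPCAM, at 5.75 to 9.15). CLDN3, MSLN and MUC16 had means of 4.06 to 4.36, and CLDN4 (2.62) and WT1 (2.15) were dim. Of the myeloid markers, PTPRC (1.51 to 1.73) and CD14 (1.74 to 1.91) were dim on every array, while CD68 was at 5.90 to 7.11.

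Interleukin-1 alpha and beta are inflammatory cytokines that share a receptor: IL1R1 binds the ligand and IL1RAP joins it as the accessory chain, and together they signal through MYD88 and IRAK kinases to NF-kB. IL1R2 binds the same ligands but lacks the signalling domain and acts as a decoy, and IL1RN is a secreted antagonist that occupies IL1R1 without signalling. IL-33 and IL-18 are relatives with their own receptors, IL1RL1 and IL18R1. Interleukin-1 beta and IL-18 are made as precursors and released after cleavage by caspase-1, while interleukin-1 alpha is active as made. In ovarian cancer, interleukin-1 made by tumour cells is known to act on stromal and mesothelial cells.

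IL1A, IL1B, IL1R1 and IL1R2 had higher signals on both CtBP2 knockdown arrays than on each of the other 5 arrays. The 250 bases before their annotated starts are shown because these 4 genes carry the pattern described below. The sequences are RefSeq's on GRCh38.p14, written 5′ to 3′ along the gene. RefSeq windows were found for 9 of the 10 genes. Where a gene has several starts, 1 window holding a marked motif is shown, and the arrays do not say which start was used. Capitals mark matches on either strand to a loose form of the NF-kB motif (GGG, any 5 bases, then CC) or to the AP-1 motif TGANTCA. Matches on opposite strands can overlap.
IL1A (chr2:112784401-112784650, minus strand): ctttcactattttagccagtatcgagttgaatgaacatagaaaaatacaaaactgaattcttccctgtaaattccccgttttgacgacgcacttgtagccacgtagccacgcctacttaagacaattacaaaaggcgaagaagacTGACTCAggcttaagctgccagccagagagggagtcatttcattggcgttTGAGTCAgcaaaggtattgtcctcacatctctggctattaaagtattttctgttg
IL1B (chr2:112836780-112837029, minus strand): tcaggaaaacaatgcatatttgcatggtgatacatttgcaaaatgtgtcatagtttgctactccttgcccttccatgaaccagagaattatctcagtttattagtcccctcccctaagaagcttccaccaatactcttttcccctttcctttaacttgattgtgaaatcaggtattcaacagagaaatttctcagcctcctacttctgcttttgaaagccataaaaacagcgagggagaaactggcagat
IL1R1 (chr2:102142496-102142745, plus strand): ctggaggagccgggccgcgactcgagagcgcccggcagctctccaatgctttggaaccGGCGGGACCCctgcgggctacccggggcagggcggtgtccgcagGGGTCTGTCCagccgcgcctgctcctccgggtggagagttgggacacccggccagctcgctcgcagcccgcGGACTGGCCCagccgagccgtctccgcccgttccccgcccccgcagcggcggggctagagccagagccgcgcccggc
IL1R2 (chr2:101991710-101991959, plus strand): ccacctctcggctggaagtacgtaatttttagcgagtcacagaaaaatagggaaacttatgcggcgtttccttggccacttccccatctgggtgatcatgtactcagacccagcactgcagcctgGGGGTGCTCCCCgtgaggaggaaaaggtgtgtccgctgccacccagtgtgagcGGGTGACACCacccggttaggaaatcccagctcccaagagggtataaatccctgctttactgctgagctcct
The IL1A window holds the AP-1 letters TGACTCA and TGAGTCA, the IL1R1 window has 3 matches to the NF-kB pattern, and the IL1R2 window has 5, several of them overlapping. The IL1B window has no match to either. Of 34943 RefSeq windows of 250 bases, 54.4% hold the NF-kB pattern and 6.6% the AP-1 motif, so the first is common and its presence says little. CAGGTG, the E2-box bound by ZEB factors that recruit CtBP, occurs in none of these 4 windows and in 17.5% of all windows. The choice of windows did not look at CAGGTG, and another IL1R2 window, not shown, holds it. That window and the other IL1R1 windows have no match to the NF-kB pattern. The letters CACCC, the core bound by Krüppel-like factors, occur in the IL1R1 and IL1R2 windows shown and in 54.7% of all windows.

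IL1R1, the signalling receptor for interleukin-1, had log2 signals of 2.85 and 2.69 on the scramble arrays. The arrays labelled CtBP1 knockdown gave 4.93, 4.18 and 4.23, and the CtBP2 knockdown arrays 6.09 and 5.80. The 3 groups thus lay in steps without overlap, lowest in scramble and highest in the CtBP2 knockdown. The CtBP2 knockdown exceeded scramble by 3.17 ± 0.28 on the log2 scale (SE of the limma fit, 2 arrays against 2), a 9.01-fold higher signal, and this was the third smallest p of all genes. Its adjusted p was 0.153, above the threshold of 0.05. The arrays labelled CtBP1 knockdown exceeded scramble by 1.68 ± 0.26 (3 arrays against 2), or 3.19-fold, with an adjusted p of 0.734. The CtBP2 knockdown exceeded the arrays labelled CtBP1 knockdown by 1.497 ± 0.26, or 2.82-fold (adjusted p = 0.225). The controls lay close together for IL1R1, 0.161 apart, and the CtBP2 difference was 3.25 against scramble control 2 alone and 3.09 against scramble control 1 alone. With scramble control 1 as the lone control the adjusted p was 0.0115, within a range of 0.0115 to 0.930 over all alternatives. The CtBP1 label gave 1.595 in that setting (adjusted p = 0.0400, ranging from there to 1).

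IL1R2, the decoy receptor, was at 3.11 and 2.38 on the scramble arrays and at 2.85, 2.67 and 2.95 on the arrays labelled CtBP1 knockdown. On the CtBP2 knockdown arrays it was at 5.75 and 4.58. The first 2 groups overlapped, and both CtBP2 knockdown arrays lay above all others. The difference of the CtBP2 knockdown from scramble was 2.42 ± 0.42 (SE), or 5.34-fold, with an adjusted p of 0.238. The arrays labelled CtBP1 knockdown differed from scramble by 0.08 ± 0.38, with a 95% interval from -0.86 to 1.01, or by 0.44 and -0.29 without scramble control 1 and 2. The direct difference between the knockdowns was 2.34 ± 0.38, or 5.07-fold (adjusted p = 0.213). With scramble control 1 as the lone control the difference from scramble was 2.05 and the adjusted p 0.0429, the lowest of a range up to 0.930. So IL1R1 was higher than scramble under both labels, whereas IL1R2 was higher in the CtBP2 knockdown and overlapped the controls on the arrays labelled CtBP1 knockdown.

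IL1RAP, the accessory chain shared by the interleukin-1 and IL-33 receptors, varied little. It was at 3.58 and 3.59 in scramble, at 3.76, 3.76 and 3.77 under the CtBP1 label and at 4.13 and 3.73 in the CtBP2 knockdown. All 5 knockdown arrays lay above both controls, by small amounts. The differences from scramble were 0.18 ± 0.14 under the CtBP1 label and 0.34 ± 0.16 in the CtBP2 knockdown (SE, adjusted p = 0.739 and 0.513). CtBP2 knockdown array 2 lay below the arrays labelled CtBP1 knockdown, so those groups overlapped. The first 2 arrays labelled CtBP1 knockdown held an identical IL1RAP value, which can understate its spread.

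**Figure D1:**
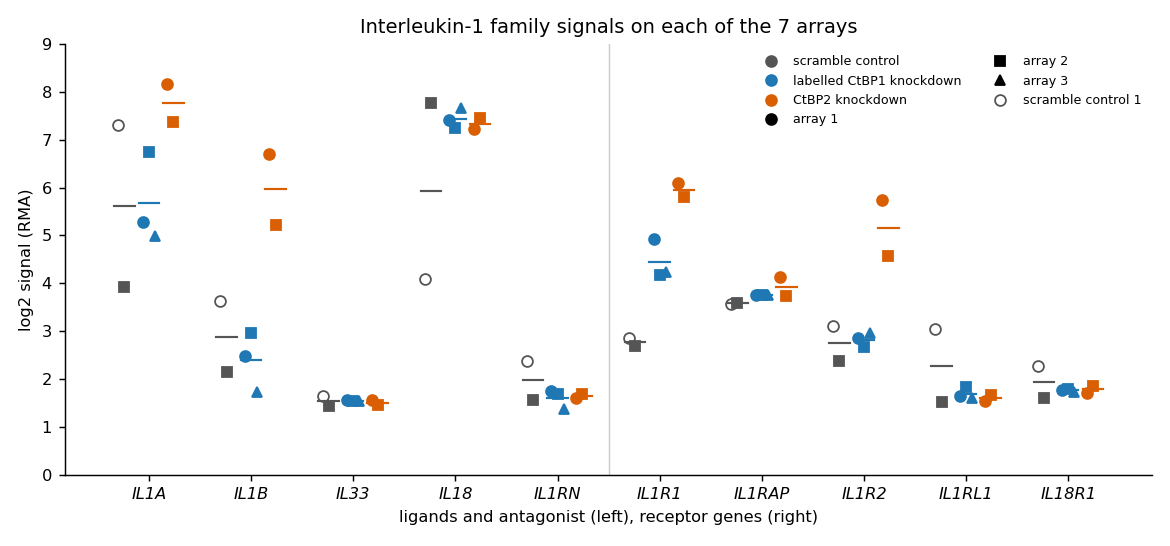
Log2 signal of each interleukin-1 family gene (x axis) on the 7 arrays, with colour for the group, marker shape for the array number and short lines for group means. IL1R1 climbs in 3 separate steps from 2.69 to 6.09, while the open circle of scramble control 1 lies far from scramble control 2 for IL1A and IL18.

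IL1B, which encodes the secreted interleukin-1 beta precursor, had the largest difference of the 10 genes between the knockdowns. Its signals were 3.62 and 2.14 in scramble and 2.48, 2.97 and 1.74 under the CtBP1 label. In the CtBP2 knockdown they were 6.70 and 5.23. The CtBP2 knockdown arrays stood above all others, and the other 5 arrays overlapped. The CtBP2 knockdown exceeded scramble by 3.08 ± 0.71 (SE), or 8.48-fold (adjusted p = 0.316), and exceeded the arrays labelled CtBP1 knockdown by 3.57 ± 0.65, or 11.8-fold (adjusted p = 0.256). The CtBP2 difference from scramble was 2.34 against scramble control 1 alone and 3.83 against scramble control 2 alone. The arrays labelled CtBP1 knockdown differed from scramble by -0.48 ± 0.65. That sign depended on scramble control 1, since the difference was 0.26 without it and -1.22 without scramble control 2. The 2 CtBP2 knockdown arrays themselves were 1.47 apart.

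IL1A, whose product also acts inside the producing cell and from its surface, gave a less settled picture because the controls disagreed. Its scramble signals were 7.31 (control 1) and 3.93 (control 2). The arrays labelled CtBP1 knockdown had 5.29, 6.75 and 4.996, between the controls, and the CtBP2 knockdown arrays 8.17 and 7.38. The latter 2 exceeded scramble control 1 by little and scramble control 2 by much. The CtBP2 difference from scramble was 2.16 ± 1.14 (SE), or 4.46-fold (adjusted p = 0.534), and it was 3.85 against scramble control 2 alone and 0.47 against scramble control 1 alone. Under the CtBP1 label the difference was 0.06 ± 1.04, and it was 1.75 without scramble control 1 and -1.63 without scramble control 2. Against the arrays labelled CtBP1 knockdown, the CtBP2 knockdown was higher by 2.10 ± 1.04, or 4.28-fold, with no overlap (adjusted p = 0.761). Neither control enters that difference, but both enter its SE and adjusted p, since the fit pools the spread of all 7 arrays. The SD of IL1A was 2.39 in scramble, 0.94 under the CtBP1 label and 0.56 in the CtBP2 knockdown.

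IL1RN, the receptor antagonist, did not follow the 2 agonists. Its signals were 2.38 and 1.57 in scramble, 1.74, 1.69 and 1.37 under the CtBP1 label, and 1.61 and 1.69 in the CtBP2 knockdown. Apart from scramble control 1, the arrays spanned 1.37 to 1.74. The difference of the CtBP2 knockdown from scramble was -0.32 ± 0.28 (SE), with a 95% interval from -1.01 to 0.36, and it was 0.0795 without scramble control 1 and -0.72 without scramble control 2. Under the CtBP1 label it was -0.37 ± 0.26, or 0.0304 without scramble control 1 and -0.77 without scramble control 2 (adjusted p = 0.0457, the lowest of a range up to 1). IL1RN is near the dim end of the array. It lay below 2.12, the 25th percentile of the mean signals of all genes, as did IL33, IL1RL1 and IL18R1. These arrays' values carry no detection call, so whether such genes were expressed at all cannot be read from them.

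IL18, the ligand related to interleukin-1 beta, was at 4.09 and 7.76 on the scramble arrays. It was at 7.41, 7.25 and 7.66 under the CtBP1 label and at 7.21 and 7.46 in the CtBP2 knockdown. A single array was low, and the other 6 lay within 7.21 to 7.76. The differences from scramble were 1.51 ± 0.98 under the CtBP1 label and 1.41 ± 1.07 in the CtBP2 knockdown (SE, adjusted p = 0.734 and 0.586). Both turned negative without scramble control 1, at -0.32 and -0.42. Without scramble control 2 they were 3.35 and 3.24, with adjusted p of 0.00755 and 0.00626, the lowest of ranges up to 1 and 0.930. The knockdowns differed from each other by -0.10 ± 0.98. That SE pools the spread of all 7 arrays and is set mainly by the gap between the controls. The SD of IL18 was 2.59 in scramble, 0.209 under the CtBP1 label and 0.175 in the CtBP2 knockdown. Between the controls, IL18 differed by -3.67 (scramble control 1 minus 2) and IL1A by 3.38, each more than 99.8% of all genes differed in size, against a median size of 0.377 over all genes.

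IL18R1, the ligand-binding chain of the IL-18 receptor, was at 2.26 on scramble control 1 and at 1.61 to 1.86 elsewhere. IL1RL1, the IL-33 receptor, was at 3.05 on scramble control 1 and at 1.51 to 1.83 elsewhere. IL33, a nuclear cytokine released from damaged cells, spanned 1.44 to 1.65 over all arrays. Groups overlapped for all 3 genes in all 3 comparisons. Their differences from scramble ran from -0.68 to 0.0046, and the 95% interval of IL33 was -0.28 to 0.29 under the CtBP1 label and -0.35 to 0.27 in the CtBP2 knockdown. For IL1RL1 the difference from scramble without scramble control 1 was 0.18 under the CtBP1 label and 0.0834 in the CtBP2 knockdown, and for IL18R1 it was 0.16 and 0.18, so both genes' signs turned. For IL33 the single controls gave -0.14 to 0.11 over both labels. Without scramble control 2, IL1RL1 gave -1.35 and -1.45 (adjusted p = 0.0128 and 0.00906) and IL18R1 -0.49 and -0.48 (adjusted p = 0.0445 and 0.0472), where all adjusted p-values are the lowest over the alternatives, which otherwise reached 0.933 or more.

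**Figure D2:**
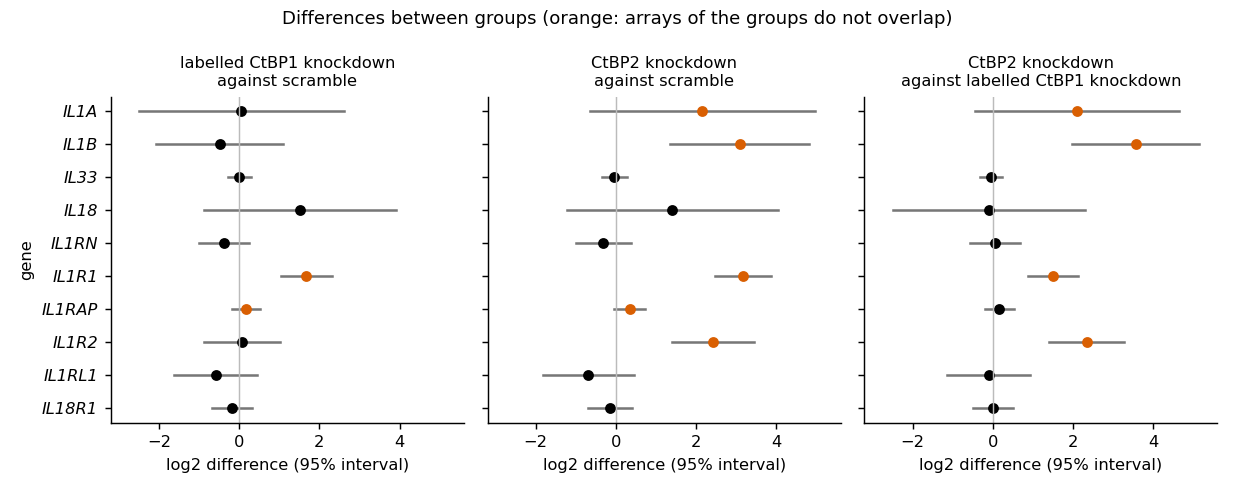
Log2 difference (x axis) with its 95% interval from the limma fit for the 10 genes in the 3 comparisons, in orange where the arrays of the groups do not overlap. IL1B, IL1R1 and IL1R2 lie clear of 0 in both comparisons that involve the CtBP2 knockdown, and IL1R1 also does under the CtBP1 label. The intervals are not adjusted for the number of genes, and 0 of the 10 genes had an adjusted p under 0.05. For IL1A and IL18 the intervals span several log2 units.

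Counted together, 5 of the 10 genes lay above both controls in each CtBP2 knockdown clone (IL1A, IL1B, IL1R1, IL1R2 and IL1RAP) and 0 were lower, while over all genes 19.3% were higher and 21.7% lower in that way. Their median log2 difference was 0.88, beside -0.02 over all genes tested, but 0.41 against scramble control 1 alone and 0.26 against scramble control 2 alone. An unadjusted p under 0.05 in the higher direction was reached by 3 of the 10 (IL1B, IL1R1 and IL1R2) and by 7.19% of all genes. Under the CtBP1 label, 2 of the 10 were higher than both controls without overlap (IL1R1 and IL1RAP), 0 were lower, and the median difference was 0.03, or -0.39 and 0.18 against scramble control 1 and 2 alone. Over all genes 6.76% were higher and 7.59% lower, with a median of -0.0047. In the direct comparison, 4 of the 10 were higher on the CtBP2 knockdown arrays than on all 3 arrays labelled CtBP1 knockdown (IL1A, IL1B, IL1R1 and IL1R2), beside 15.8% of all genes, and 0 were lower, beside 16.2%. Of these 10 genes, limma called 0 at an adjusted p under 0.05 in each comparison, where it called 0%, 0.00557% and 0% of all genes. Against scramble control 1 alone, 3 of the 10 were above and 7 below under the CtBP1 label. In the CtBP2 knockdown 6 were above and 4 below that control. IL1RN, IL1RL1, IL33 and IL18R1 lay below it under both labels, and IL18 above it by 3.35 and 3.24. Because the family was chosen with IL1R1's difference known, these shares describe the genes and are no test of the family. The 2 comparisons with scramble share their control arrays.

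**Figure D3:**
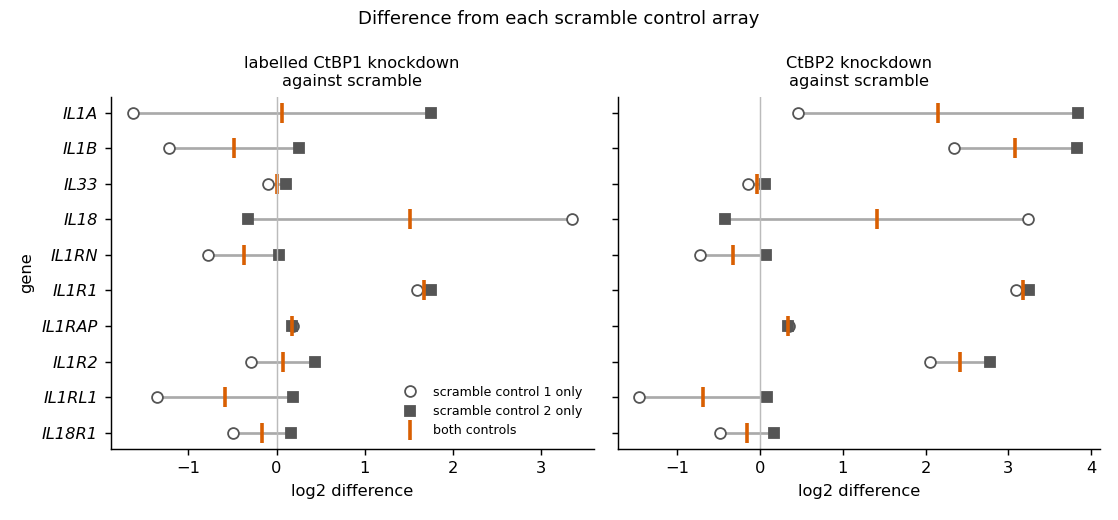
Log2 difference from scramble (x axis) with scramble control 1 as the lone control (open circles), with scramble control 2 (squares) and with both (orange bars). The symbols coincide for IL1R1 and IL1RAP, stay on the same side of 0 for IL1B and IL1R2 in the CtBP2 knockdown, and fall on opposite sides of 0 for IL18.

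The genes whose pattern was most like that of IL1R1 were sought among 5630 genes with a range of at least 1 log2 unit over the 7 arrays. The 5 with the highest Pearson correlation over the 7 arrays were PFKFB3 (0.988), an enzyme that makes an activator of glycolysis, CMTM7 (0.973), the metalloprotease ADAM12 (0.968), the class I-like HLA-F (0.966) and the ubiquitin hydrolase UCHL1 (0.962). The points share the 3 groups and the controls, so the values describe likeness of pattern. PFKFB3 was at 4.33 and 4.04 in scramble, at 5.18, 4.94 and 4.995 under the CtBP1 label and at 5.67 and 5.57 in the CtBP2 knockdown, in the same 3 steps. ADAM12 stepped from 2.64 and 3.08 through 3.92, 3.71 and 3.69 to 4.47 and 4.43. Without scramble control 1 these 5 correlations were 0.959 to 0.995 over 6 arrays.

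The members on chromosome 2 lie in a receptor cluster and a ligand cluster, and most of their measured neighbours in RefSeq gene order differed little from scramble. In the receptor cluster the order is RFX8, MAP4K4, IL1R2, IL1R1, IL1RL2, IL1RL1, IL18R1, IL18RAP and SLC9A4. IL1R2 and IL1R1 are adjacent, and in the CtBP2 knockdown both exceeded scramble by over 2 log2 units. IL1RL2, the IL-36 receptor and the next gene, differed by -0.29 ± 0.20 (SE; -0.16 without scramble control 1), MAP4K4, a kinase gene on the other side, by -0.05 ± 0.36 (0.39 and -0.50 without scramble control 1 and 2), and IL18RAP, the IL-18 accessory chain, by -0.11 ± 0.13. In the ligand cluster IL1A and IL1B are adjacent and are followed by IL37, IL36G, IL36A, IL36B, IL36RN, IL1F10 and IL1RN. The 6 genes from IL37 to IL1F10, relatives that encode other ligands and antagonists of the family, differed in the CtBP2 knockdown by -0.51 to -0.02 and had signals between 1.58 and 3.40. Against scramble control 2 alone they differed by -0.10 to 0.17, with IL37, IL36A and IL36RN above 0. CKAP2L, a mitotic spindle protein gene before IL1A, was an exception: it exceeded scramble by 1.02 ± 0.36 in the CtBP2 knockdown, without overlap (adjusted p = 0.440), and by 0.49 against scramble control 2 alone. PAX8, a lineage factor of the ovary and kidney that flanks this cluster, was higher than scramble by 1.35 ± 0.36 under the CtBP1 label and by 0.26 ± 0.40 in the CtBP2 knockdown (adjusted p = 0.734 and 0.774). Against scramble control 2 alone these were 0.81 and -0.28, so the sign in the CtBP2 knockdown turned.

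**Figure D4:**
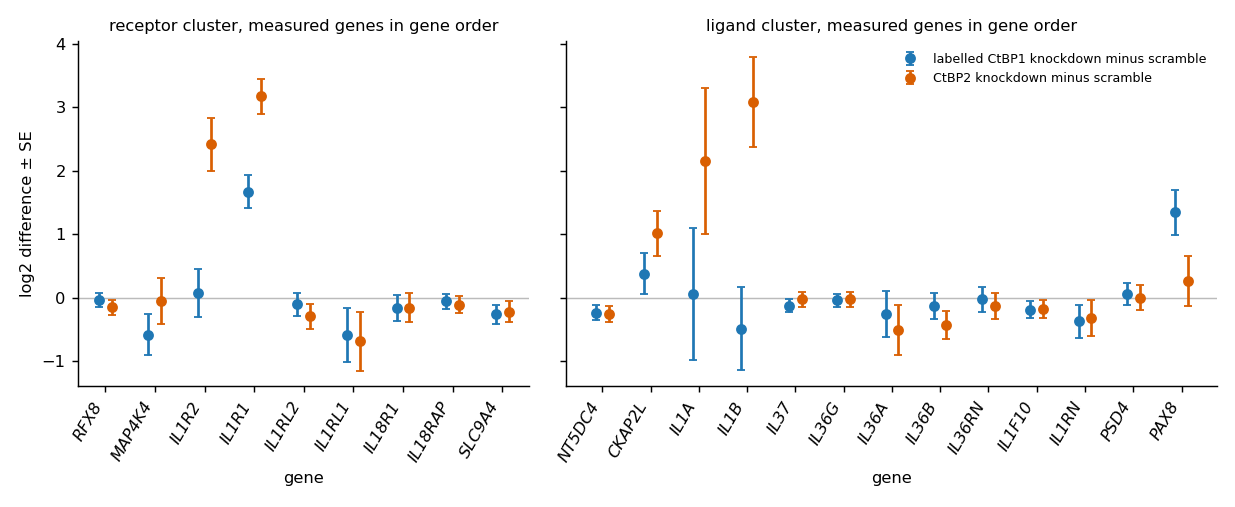
Log2 difference from scramble ± SE (y axis) for the measured genes of the receptor and ligand clusters in RefSeq gene order, with positions not to scale. High values in the CtBP2 knockdown are at the adjacent pairs IL1R2 and IL1R1 and IL1A and IL1B, with CKAP2L at 1.02, while the genes from IL37 to IL1RN lie at or below 0 with both controls averaged, as plotted.

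The rest of the pathway was described with 6 lists of genes, 107 in all, of which 101 were measured. Limma called 0 of the 101 in each comparison. Without scramble control 2 it called 11 under the CtBP1 label and 12 in the CtBP2 knockdown, named genes among them being TLR9, TLR4 and UBE2N under both labels and IL36B, IRAK1 and NFKB1 in the CtBP2 knockdown. These are 10.9% and 11.9% of the list, below the 18.2% and 22% of all genes called in that setting. In the CtBP2 knockdown 13 were higher and 2 lower than scramble at an unadjusted p under 0.05, beside 7.19% and 2.98% of all genes. Under the CtBP1 label 5 were higher and 1 lower, beside 2.87% and 1.92% of all genes. In the direct comparison 7 were higher and 4 lower, beside 5.31% and 2.46%. Without overlap of arrays, 22 were higher and 24 lower in the CtBP2 knockdown, beside 19.3% and 21.7% of all genes. Under the CtBP1 label these counts were 11 and 7, beside 6.76% and 7.59%, and in the direct comparison 18 and 19, beside 15.8% and 16.2%. Of all 17958 genes, 8490 were above scramble in the CtBP2 knockdown and 8824 under the CtBP1 label.

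Among genes that transmit the signal from the receptor, 16 of 22 measured were above scramble in the CtBP2 knockdown, with a median difference of 0.33, and 19 of 22 under the CtBP1 label, with a median of 0.18. Against scramble control 2 alone 14 and 7 of 22 were above, with medians of 0.0549 and -0.0819, so under the CtBP1 label the direction rests on scramble control 1. IRAK1, a kinase recruited by MYD88, was at 3.75 and 4.51 in scramble, at 4.21, 4.37 and 4.77 under the CtBP1 label and at 5.16 and 5.07 in the CtBP2 knockdown. Its CtBP2 difference was 0.99 ± 0.30 (SE, adjusted p = 0.398), and 0.61 and 1.37 without scramble control 1 and 2. UBE2N, the enzyme that builds the ubiquitin chains used by TRAF6, differed by 0.99 ± 0.35 in the CtBP2 knockdown and 0.69 ± 0.32 under the CtBP1 label, or 0.51 and 0.21 without scramble control 1. TAB3, an adaptor of the kinase TAK1, differed by 0.62 ± 0.30 under the CtBP1 label, or 0.33 without scramble control 1. Between the knockdowns, UBE2V1, the partner of UBE2N, was lower in the CtBP2 knockdown by a difference of -0.65 ± 0.15, and MAPKAPK2, a kinase that stabilises cytokine mRNA, was higher by 0.51 ± 0.19.

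Of the 11 NF-kB subunits and inhibitors, 9 were above scramble in the CtBP2 knockdown (median 0.56) and 10 under the CtBP1 label (median 0.32). Against scramble control 1 alone 7 and 6 of 11 were above, with medians of 0.35 and 0.15. NFKB1, which encodes the p105 precursor of the p50 subunit, was at 4.77 and 4.84 in scramble, at 5.08, 4.85 and 4.89 under the CtBP1 label and at 6.16 and 6.12 in the CtBP2 knockdown. It thus set the CtBP2 knockdown arrays apart from the other 5, as IL1R2 and IL1B did. It exceeded scramble by 1.34 ± 0.13 (SE, adjusted p = 0.153) and the arrays labelled CtBP1 knockdown by 1.202 ± 0.12 (adjusted p = 0.129). NFKB2 differed from scramble by 0.56 ± 0.18 in the CtBP2 knockdown and 0.37 ± 0.16 under the CtBP1 label, and RELA by 0.32 ± 0.20 under that label. BCL3, a nuclear partner of p50, was lower in the CtBP2 knockdown than under the CtBP1 label by a difference of -0.68 ± 0.27, with overlapping arrays.

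Of 30 genes known to be induced by interleukin-1, 27 were measured, with a median difference of 0.45 in the CtBP2 knockdown (19 above scramble) and 0.05 under the CtBP1 label (16 above). Against scramble control 1 alone the medians were 0 (13 above) and -0.23 (9 above), and against scramble control 2 alone 0.69 (22 above) and 0.34 (23 above), so the direction of this list depends on the control. IL6, the inflammatory cytokine, was at 3.13 and 3.43 in scramble, at 6.005, 7.27 and 5.375 under the CtBP1 label and at 7.27 and 5.375 in the CtBP2 knockdown. All 5 knockdown arrays stood above both controls, with differences of 2.94 ± 0.72 and 3.04 ± 0.79 (SE, adjusted p = 0.734 and 0.357). LCN2, an iron-carrier-binding protein of epithelial inflammation, was at 6.18 and 3.87 in scramble, at 5.67, 4.47 and 4.01 under the CtBP1 label and at 9.11 and 7.29 in the CtBP2 knockdown. The CtBP2 knockdown exceeded scramble by 3.17 ± 0.99 (adjusted p = 0.417), or by 4.33 and 2.02 without scramble control 1 and 2, and exceeded the arrays labelled CtBP1 knockdown by 3.49 ± 0.90 (adjusted p = 0.406). The chemokine CCL20 exceeded those arrays by 1.08 ± 0.33, and the cytokine LIF exceeded scramble by 0.90 ± 0.22 under the CtBP1 label, a difference that was -0.62 with the most variable of its clusters. IL6 was thus high under both labels, as IL1R1 was, and LCN2 in the CtBP2 knockdown, as IL1B and IL1R2 were.

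**Figure D5:**
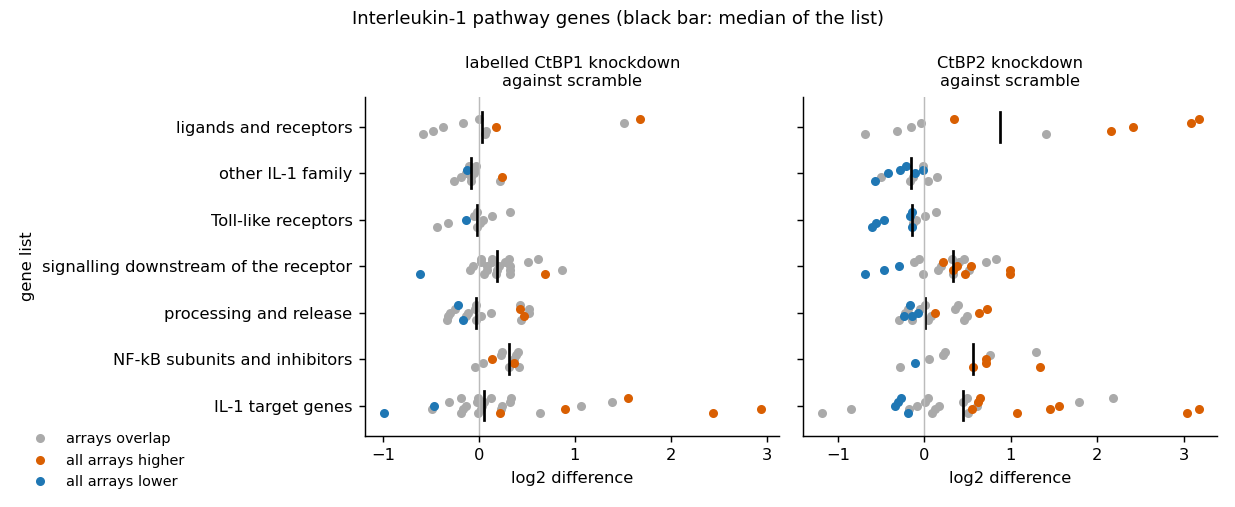
Log2 difference from scramble (x axis) of each gene in the interleukin-1 ligand and receptor set and in 6 pathway lists, 1 point a gene, coloured by whether the arrays of the groups overlap, with a black bar at the list median. In the CtBP2 knockdown the medians of the signalling, NF-kB and target lists lie at 0.33, 0.56 and 0.45, and those of the other family members and Toll-like receptors at -0.15 and -0.14, all with both controls averaged; with single controls the target median runs from 0 to 0.69 and the signalling median from 0.0549 to 0.50.

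Genes that process and release the cytokines had a median difference of 0.0051 in the CtBP2 knockdown and -0.03 under the CtBP1 label over 19 measured genes, and either control alone put both medians between -0.0429 and 0.0682. CASP1, the protease that cleaves interleukin-1 beta and IL-18, was at 1.41 to 1.85 on all arrays. GSDME, a pore-forming gasdermin, was at 3.63 and 3.77 in scramble, at 4.19, 4.33 and 4.01 under the CtBP1 label and at 4.63 and 4.23 in the CtBP2 knockdown. Its differences from scramble were 0.48 ± 0.17 and 0.73 ± 0.19 (SE, adjusted p = 0.734 and 0.357). CASP8 differed by 0.43 ± 0.18 under the CtBP1 label (0.26 without scramble control 1), and the inflammasome sensor NLRC4 by -0.24 ± 0.14 in the CtBP2 knockdown (-0.15 without scramble control 2). Against the arrays labelled CtBP1 knockdown, the calpain subunit CAPN2, part of a protease that trims interleukin-1 alpha, was higher in the CtBP2 knockdown by 0.72 ± 0.22, and HAX1 by 0.66 ± 0.23.

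The other family members did not show the high values, nor did the Toll-like receptors, which share the signalling domain of IL1R1. Most genes of each list had mean signals below 2.12, the 25th percentile of the mean signals of all genes. IL18RAP, IL1RAPL2, IL36G, TLR1, TLR4 and TLR10 were among them. Whether such dim genes were expressed at all cannot be read from these arrays, so their counts and differences describe signals near the dim end. Of 12 other family members, 10 were below scramble in the CtBP2 knockdown (median -0.15) and 10 under the CtBP1 label (median -0.08). Against scramble control 2 alone 7 and 5 of 12 were below, with medians of -0.0289 and 0.0324, so under the CtBP1 label the direction turned. IL1RAPL1, a neuronal relative of IL1RAP, differed by -0.57 ± 0.33 in the CtBP2 knockdown and by -0.79 ± 0.30 between the knockdowns. IL36B, an agonist of the IL-36 receptor, differed by -0.43 ± 0.22 in the CtBP2 knockdown, or -0.0976 and -0.76 without scramble control 1 and 2. IL18BP, the soluble inhibitor of IL-18, differed by 0.24 ± 0.14 under the CtBP1 label and by -0.20 ± 0.14 between the knockdowns, and IL1F10 by -0.18 ± 0.13 under the CtBP1 label (-0.0391 without scramble control 1). Of 10 Toll-like receptors, 8 were below scramble in the CtBP2 knockdown, led by TLR9 (-0.56 ± 0.21) and TLR4 (-0.61 ± 0.32), both of which were highest on scramble control 1. Without that array their differences were -0.25 and -0.14. Under the CtBP1 label TLR9 and TLR4 differed by -0.32 ± 0.19 and -0.44 ± 0.29, or -0.004 and 0.03 without scramble control 1, and between the knockdowns TLR3 and TLR1 differed by -0.78 ± 0.49 and -0.19 ± 0.11.

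Markers of cell types that make interleukin-1, and of other stromal cells, mostly had low signals. Of 9 measured myeloid markers, 8 had mean signals under the 25th percentile of all genes and 2 were above scramble in the CtBP2 knockdown. The exception was CD68, a lysosomal protein, at 5.90 to 7.11. The summed linear signal of this list was 132 to 163 in scramble, 87.2 to 166 under the CtBP1 label and 115 to 142 in the CtBP2 knockdown. Most of that sum came from CD68 on every array, so its range is mainly that of CD68. The medians of the lymphoid, mast cell, endothelial and fibroblast lists were 1.72 to 2.43 on all arrays, highest on scramble control 1 in each. Means above that percentile were found for 4 of 7 lymphoid, 1 of 4 mast cell, 1 of 6 endothelial and 3 of 8 fibroblast markers. The part of these markers in the interleukin-1 values was not tested.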

How the data were processed

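Total RNA from 7 SKOV3 clones was measured on Affymetrix Human Gene 1.1 ST arrays. Values deposited by the authors are on the log2 scale, 1 per transcript cluster, and the submitters' processing notes name RMA and Affymetrix Expression Console. RMA equalises the distributions of probe signals across arrays, which can compress true shifts. The labels name a column kit and the design text TRIzol, so the extraction is not settled. No genome build is given in the sources used here. Precision rests on the number of arrays.

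Of 33297 clusters, GEO's platform annotation gives 1 symbol for 19181, several for 2055, and does not list 12061. Symbols were updated through Entrez identifiers with RefSeq of GRCh38.p14 (17930 of 17958 genes), and the brightest cluster of a gene was used. Groups were taken from the titles. A model with 3 group means was fitted to all genes and all 7 arrays with limma 3.58.1 in R 4.3.3 (lmFit, default eBayes, 4 residual degrees of freedom), with two-sided p-values adjusted by Benjamini-Hochberg over all genes within a comparison and a threshold of 0.05. The fit was run on simulated data with the same spread for all genes and arrays, which does not cover an outlying control such as scramble control 1. Values after ± are the fit's standard errors.

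The members and gene lists were chosen with earlier results of these data known. Named genes are the 10 members, the targeted genes, the 2 genes with the smallest p of each pathway list and comparison, the 5 genes most like IL1R1, and the measured neighbours of the clusters; CASP1 and the markers given were named after their values were seen. Promoter windows are RefSeq's, cut to 250 bases. Replicate numbers were not used to pair arrays. Alternatives were quantile normalization, median centring, dropping dim genes, the mean or the most variable of a gene's clusters, eBayes with a trend or robust, weights per array, fits on only the groups compared, a block for the replicate number, and leaving out single arrays.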

Additional observations from a re-analysis of the deposited data

How the results depend on the processing

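Over 17 alternatives, 0 of the 10 genes and 0 of the 101 pathway genes were called in each comparison, except in 2 settings. Leaving out 1 array gave 0 to 5 genes of the family under the CtBP1 label and 0 to 5 in the CtBP2 knockdown, and 0 to 11 and 0 to 12 pathway genes. The highest counts came without scramble control 2, where the outlying scramble control 1 is the lone control, assumed to vary like the other groups, and 3262 and 3952 of all genes were called. Those family calls included genes lower than scramble, IL1RL1 and IL18R1 under both labels and IL1RN under the CtBP1 label. Array weights gave 3 called family genes in the direct comparison (IL1B, IL1R1 and IL1R2, at adjusted p of 0.0428, 0.0358 and 0.0487, which ranged up to 1 over the alternatives) and 1 pathway gene, NFKB1. In that setting 272 of all 17958 genes were called. The weights were 0.272 for the scramble arrays and 2.66 for the CtBP2 knockdown arrays.

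IL1R1 (3.03 to 3.32), IL1B (2.34 to 3.83), IL1R2 (1.83 to 3.00), IL1A (0.47 to 3.85) and IL1RAP (0.14 to 0.55) kept their direction in the CtBP2 knockdown when each array was left out. Signs turned for differences near 0 or set by scramble control 1. Under the CtBP1 label, leaving out single arrays gave ranges of -1.63 to 1.75 for IL1A, -1.22 to 0.26 for IL1B, -0.29 to 0.44 for IL1R2, -0.77 to 0.0304 for IL1RN, -1.35 to 0.18 for IL1RL1, -0.10 to 0.11 for IL33, -0.32 to 3.35 for IL18, -0.49 to 0.16 for IL18R1 and -0.91 to 0.0302 for TLR4. In the CtBP2 knockdown they were -0.72 to 0.0795 for IL1RN, -1.45 to 0.0834 for IL1RL1, -0.14 to 0.0636 for IL33, -0.42 to 3.24 for IL18 and -0.48 to 0.18 for IL18R1. Between the knockdowns they were -0.0339 to 0.37 for IL1RAP, -0.0652 to 0.12 for IL1RN, -0.10 to 0.0137 for IL33, -0.23 to 0.0218 for IL18 and -0.0615 to 0.0867 for IL18R1. Quantile normalization gave -0.18 for IL1A under the CtBP1 label, 0.11 for IL33 and 0.015 for IL18R1 in the CtBP2 knockdown, and 0.024 for IL33 between the knockdowns. Median centring gave -0.0322 for IL33 under the CtBP1 label and -0.008 for IL18R1 between the knockdowns, array weights gave -0.0269 for IL1A under the CtBP1 label, and the most variable cluster gave -0.62 for LIF under the CtBP1 label. The cause was not tested.

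With the replicate number as a block, 0 family genes and 0 pathway genes were called in each comparison. Between the knockdowns the block gave -0.0652 for IL1RN, 0.0094 for IL18 and -0.0069 for IL18R1. Deviations from the group means of arrays with the same number correlated at -0.354 to 0.0977. In a group of 2 arrays these deviations mirror each other, so the correlations cannot tell whether the numbers pair the arrays. The filter on dim genes left out IL33, IL1RN, IL1RL1 and IL18R1.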
